A study of Mus musculus with 18 samples.

Results

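The genes described here are 10 genes for RNA-binding proteins, Cpeb1, Cpeb2, Cpeb3 and Cpeb4, Mbnl1, Mbnl2 and Mbnl3, Celf1 and Celf2, and Rbfox2, out of 50689 rows of a table of UMI counts. A UMI is a short random tag that marks single molecules before amplification, so that copies of 1 molecule are counted once. The rows were found by matching their mouse Ensembl identifiers to these symbols, and each symbol matched 1 row. They were chosen by name after levels in scKO and control had been compared, Cpeb2 being among the genes that an earlier analysis of the same libraries had called. Their differences between scKO and control are therefore given as a description, with standard errors and without p-values. Calls of these genes from the fit of the whole table are counted below as a description too. RNA came from cultures of satellite cells (muscle stem cells) of the tibialis anterior of C57BL6 mice, kept in growth medium on matrigel. The scKO group (Pax7-CreERT2/+;Hoxa10f/f, 9 libraries) had 4-hydroxytamoxifen at 1 µM for 2 days, which activates a Cre recombinase expressed from Pax7. The control group (Hoxa10f/f, 9 libraries) has the same Hoxa10 alleles with Cre target sites and no Cre, and its labels give no 4-hydroxytamoxifen, so Cre, the drug and the loss of Hoxa10 cannot be told apart. The age of the mice and whether libraries came from separate animals or cultures are not stated in the labels, so the spread between libraries may be technical.

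CPEB proteins bind a short U-rich element in the 3′ UTR of messenger RNAs, the cytoplasmic polyadenylation element (CPE), and turn the translation of these messages off or on by way of the length of their poly(A) tail. They were first studied in maturing oocytes and at synapses. MBNL and CELF proteins regulate alternative splicing, in many muscle transcripts with opposite effects, and the balance between them shifts as muscle matures. In myotonic dystrophy, MBNL proteins are sequestered on expanded CUG repeats while CELF1 activity is raised. RBFOX proteins bind UGCAUG near exons and regulate the splicing of muscle and neuronal transcripts. Counts per gene, as used here, show the level of a message and not its splicing, tail length or translation.

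The libraries fell into a deep class with over 2000000 counts (scKO 6, 7 and 9, control 1 and 2; 4346150 to 5986128 counts) and a shallow class (6 scKO and 7 control libraries; 420197 to 968559 counts). Levels are CPM, the share of the library total in parts per 10 to the power of 6, scaled by TMM, which adjusts totals for differences in composition. The highest count of any gene equals the number of different tags of 6 bases (4 to the power of 6), and this is called the ceiling below. Hoxa10, the targeted gene, had 3.52 CPM (median; range 1.87 to 10.3) in scKO libraries and 37.1 CPM (median; range 14.8 to 64.2) in control libraries, with no overlap. The 11 satellite cell and myoblast markers, Pax7, Myod1 and Myf5 among them, all had counts in all 18 libraries. They summed to 9799 to 11390 CPM in shallow scKO and 8270 to 12360 CPM in shallow control libraries. Deep sums were lower, at 3097 to 3410 CPM in scKO and 2993 to 3720 CPM in control. Chrna1, Cdh15, Itga7 and Des had the highest medians of these markers (1770, 1618, 1533 and 1482 CPM). Pax7 and Myf5 had medians of 31.1 and 38.75 CPM. Leukocyte markers (7 genes) summed to at most 11.1 CPM in scKO and 8.65 CPM in control. Some markers of other cell types, among them Scx, Rgs5, Notch3, Sox10, Pdgfra and Stmn2, also had counts in every library. In an earlier analysis 4 shallow libraries, control 7, 8, 9 and scKO 1, lay away from the rest, and results are given without them where they moved.

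CPEs were counted in the 3′ UTR of each member, since that element is what CPEB proteins read and since Cpeb2 was the member with the largest difference. The search was for TTTTAT or TTTTAAT on the transcript strand, overlapping matches included, in the longest 3′ UTR of each gene among GENCODE M21 basic transcripts (GRCm38). Cpeb2 held 24 matches in 3778 bases (6.35 per kb), and Cpeb4 held 17 in 4102 bases (4.14 per kb), against 1.34 per kb over all 3′ UTRs. Of 2155 genes with a 3′ UTR within 25% of the length of that of Cpeb2, 2 (0.093%), Cpeb2 included, held as many, and the median was 4. The 3′ UTR of Cpeb2 was 66.6% A and T, against a median of 58.1% at that length. Among the 334 genes that also lay within 3 percentage points of its A and T content, the median was 8 matches and 1, Cpeb2 itself, held 24. For Cpeb4, 10 of 1906 genes of like length (0.525%) held as many, and 6 of 377 (1.59%) that were also of like A and T content, with a median of 8. Of the other members, Cpeb3 held 6, Cpeb1 and Mbnl3 held 4 each, and Mbnl1, Celf1 and Rbfox2 held 8 each. Mbnl2 held 9 and Celf2 held 16. At like length and A and T content, 6.27% of genes held as many as Rbfox2, with a median of 3. That share was 12.0% for Celf2, 13.4% for Cpeb1 and 21.3% for Mbnl2. It was 29.4% for Celf1, 43.5% for Mbnl1, 49.0% for Cpeb3 and 86.4% for Mbnl3. The stretches of 30 bases with the most matches in the 3′ UTR of Cpeb2 (chr5:43289154-43289183, plus strand), Cpeb4 (chr11:31935142-31935171, plus strand) and Mbnl2 (chr14:120431223-120431252, plus strand) are shown 5′ to 3′, with matches in capitals.
Cpeb2: TTTTATTTTATTTTAATagtagtaaaatac
Cpeb4: TTTTATtTTTTATatttttaaaatttaaag
Mbnl2: TTTTATttatttataatgtaaTTTTATaga
In Cpeb2, 3 matches overlap in a single run, and Cpeb4 and Mbnl2 have 2 each. These stretches of 30 bases end 541, 463 and 445 bases before the annotated transcript end, in that order. In the last 100 bases, where elements acting on the poly(A) tail are usually sought, 17.8% of 19732 genes held a match. Among the members only Mbnl1 (chr3:60629643-60629672, plus strand), Celf1 (chr2:91019398-91019427, plus strand) and Rbfox2 (chr15:77079060-77079089, minus strand) did, with 1 each, shown in the same way.
Mbnl1: ggctgcaatttgTTTTATgcttactttatt
Celf1: tctgTTTTAATtgcacagacacacagacaa
Rbfox2: tgttgctggcTTTTATaaactcttagcaaa
The RBFOX motif TGCATG occurred 5 times in the 3′ UTR of Cpeb2 and 4 times in that of Cpeb4 (1.32 and 0.98 per kb), against 0.359 per kb over all 3′ UTRs. Mbnl1 held 3 (0.88 per kb), and Cpeb3 and Celf2 held 2 each (0.56 and 0.27 per kb). Mbnl2 and Celf1 held 1 each (0.36 and 0.16 per kb), and Rbfox2, Cpeb1 and Mbnl3 held 0. Counts of this motif were not set against 3′ UTRs of like length or A and T content. A match is a string of letters and not a shown binding site.

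Cpeb2, on chromosome 5 (43233170 to 43289724, plus strand, GRCm38), encodes a CPEB protein of the group formed by CPEB2, CPEB3 and CPEB4, which resemble each other in their RNA-binding part more than they resemble CPEB1. In deep libraries it had 138.1, 140.9 and 140.7 CPM in scKO 6, 7 and 9, against 69.9 and 76.2 CPM in control 1 and 2. In shallow libraries it ranged from 70.4 to 146.2 CPM (median 97.9) in scKO and from 49.7 to 75.5 CPM (median 60.2) in control. The deep groups did not overlap, and of the shallow scKO libraries only scKO 1, at 70.4 CPM, lay below the highest shallow control. All 9 scKO libraries lay above the control mean of their depth class. The log2 fold change was 0.80 (SE 0.13; fold 1.74) over all 18 libraries with the depth class in the edgeR model, 0.72 (SE 0.18) in shallow libraries alone and 0.92 (SE 0.09) in deep libraries alone. In bulk RNA a change in the share of cells that express a gene cannot be told apart from a change in each cell. These counts were far from the ceiling in shallow libraries (47 to 92 UMIs in scKO and 20 to 59 in control) and reached 27.2% of the ceiling at most in deep ones. Cpeb2, Cpeb3 and Mbnl2 share 137, 116 and 86 exonic bases with antisense genes that held 2, 0 and 1 counts in all libraries together.

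Cpeb3, on chromosome 19 (37021291 to 37208601, minus strand), encodes a CPEB protein known from the nervous system as a regulator of synaptic messages. Its deep values were 17.0, 24.1 and 15.6 CPM in scKO 6, 7 and 9, against 7.89 and 11.7 CPM in control 1 and 2. In shallow libraries it ranged from 9.36 to 27.0 CPM (median 14.3) in scKO and from 6.93 to 32.4 CPM (median 17.8) in control. The deep groups did not overlap and the shallow groups did over most of their range. The log2 fold change was 0.91 (SE 0.23) in deep libraries alone and -0.17 (SE 0.37) in shallow libraries alone, where each library held only 5 to 18 UMIs of Cpeb3 in scKO and 6 to 15 in control.

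Cpeb4, on chromosome 11 (31872211 to 31935634, plus strand), encodes a CPEB protein that acts in meiosis and in stress responses. Its deep values were 68.8, 61.2 and 59.5 CPM in scKO 6, 7 and 9, against 29.8 and 36.4 CPM in control 1 and 2. In shallow libraries it ranged from 30.5 to 40.5 CPM (median 36.3) in scKO and from 17.3 to 67.2 CPM (median 34.2) in control. The shallow scKO libraries thus lay inside the control range. Control 8 and 9 had the highest values, at 67.2 and 63.4 CPM. Without these, shallow controls ranged from 17.3 to 42.8 CPM, which still held all shallow scKO libraries. The log2 fold change was 0.91 (SE 0.12) in deep and -0.08 (SE 0.28) in shallow libraries alone. Over all 18 libraries it was 0.37 (SE 0.21) for Cpeb4 and 0.44 (SE 0.27) for Cpeb3.

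Leaving out control 7, 8 and 9 and scKO 1 raised these values to 0.76 (SE 0.14) for Cpeb4 and 0.67 (SE 0.23) for Cpeb3, while Cpeb2 moved to 0.86 (SE 0.12). In shallow libraries alone without those 4, Cpeb4 was at 0.47 (SE 0.24) and Cpeb2 at 0.79 (SE 0.20), and Cpeb3 did not pass the count filter.

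Cpeb1, on chromosome 7 (81347026 to 81455465, minus strand), encodes the founding member of the family, which represses and then activates maternal messages in oocytes. It was near the limit of detection and did not pass the count filter. Shallow libraries held 19 UMIs in 6 scKO and 14 in 7 control libraries, which is 4.85 CPM (95% exact Poisson interval 2.92 to 7.57) and 3.22 CPM (1.76 to 5.40). Deep libraries held 75 UMIs in 3 scKO and 45 in 2 control libraries, which is 3.36 CPM (2.65 to 4.22) and 3.24 CPM (2.37 to 4.34). The intervals cover counting error only, and they overlap in both classes.

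**Figure D1:**
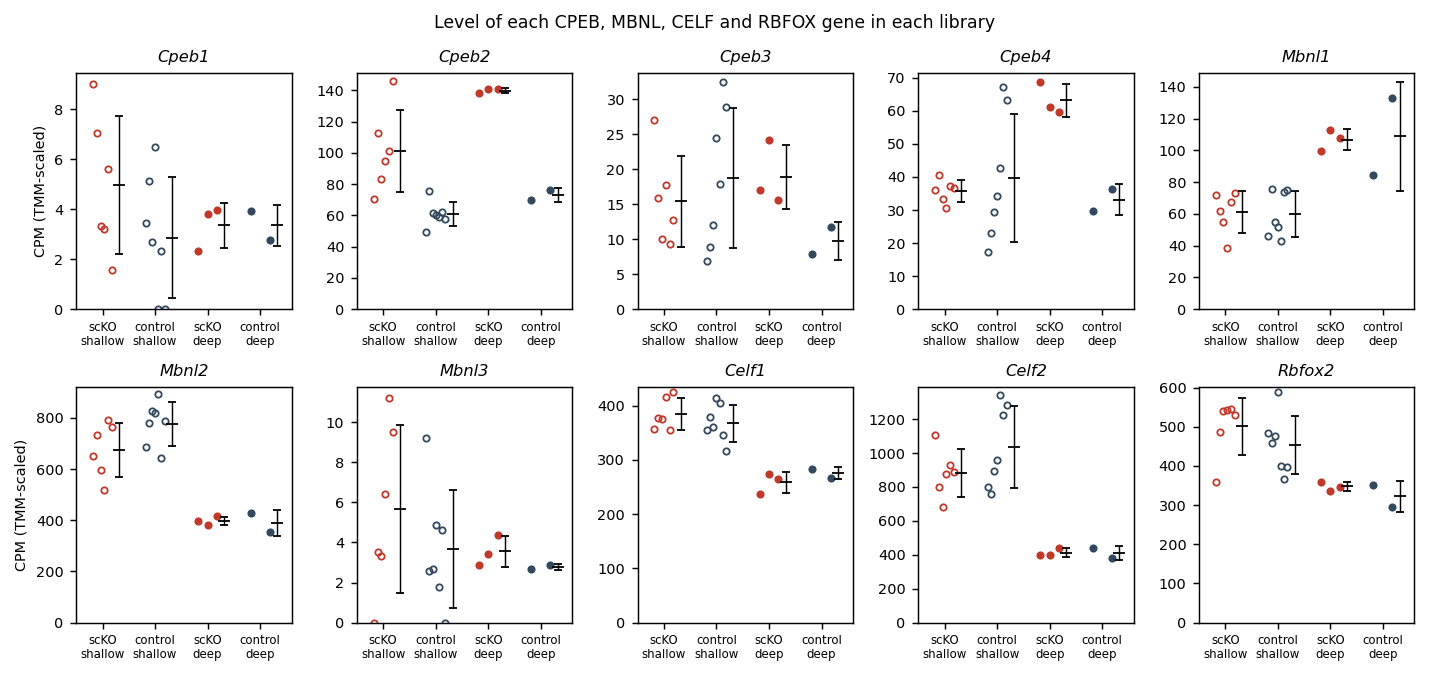
CPM of each of the 10 genes in each library, with scKO left of control in the shallow and then the deep class. Each point is 1 library and the bar beside each group is its mean ± SD. Cpeb2, Cpeb3 and Cpeb4 in deep scKO libraries lie above both deep controls, and Mbnl2, Celf1, Celf2 and Rbfox2 are lower in deep than in shallow libraries of both groups.

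Among the splicing factors, Mbnl1 (chromosome 3, 60472830 to 60629750, plus strand), the main MBNL protein of adult muscle, did not separate the groups. It had 99.9, 112.8 and 108.0 CPM in deep scKO 6, 7 and 9, against 84.6 and 133.3 CPM in deep control 1 and 2. Its shallow values ranged from 38.6 to 73.1 CPM (median 64.5) in scKO and from 42.8 to 75.5 CPM (median 55.0) in control. scKO differed from control by 0.02 on the log2 scale (SE 0.15) over all libraries, by 0.03 (SE 0.20) within the shallow class and by -0.05 (SE 0.17) within the deep class. In deep libraries it was -0.34 (SE 0.11) without control 1 and 0.32 (SE 0.12) without control 2, so its deep value rests on which control is kept.

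Mbnl2 (chromosome 14, 120275669 to 120431697, plus strand), which overlaps Mbnl1 in function and is prominent in brain, ranged from 517.4 to 789.7 CPM (median 692.2) in shallow scKO and from 643.8 to 894.6 CPM (median 789.6) in shallow control libraries. Of the 6 shallow scKO libraries, 1 lay above the control mean. The log2 fold change was -0.14 (SE 0.10) over all libraries and -0.21 (SE 0.14) in shallow libraries alone. Its deep values were 397.6, 381.5 and 414.5 CPM in scKO 6, 7 and 9, against 426.2 and 354.1 CPM in control 1 and 2. Those deep counts, 2907 to 3019 UMIs in scKO and 2378 and 2936 in control, lay at up to 73.7% of the ceiling, where further molecules add few new UMIs.

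Mbnl3 (X chromosome, 51117269 to 51206532, minus strand), which is expressed in myoblasts and opposes their differentiation, was seen in few UMIs and did not pass the filter. Deep libraries held 79 UMIs in 3 scKO and 39 in 2 control libraries, which is 3.54 CPM (95% exact Poisson interval 2.81 to 4.42) and 2.81 CPM (2.00 to 3.84). Shallow libraries held 21 UMIs in 6 scKO and 18 in 7 control libraries. Without a filter the log2 fold change was 0.35 (SE 0.30) for Mbnl3 and 0.21 (SE 0.30) for Cpeb1.

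Celf1 (chromosome 2, 90940382 to 91019497, plus strand), which acts in splicing and in the decay of GU-rich messages, was among the least variable members. It ranged from 355.5 to 425.9 CPM (median 376.3) in shallow scKO and from 317.0 to 414.9 CPM (median 360.7) in shallow control libraries. Its deep values were 237.2, 273.6 and 265.3 CPM in scKO 6, 7 and 9, against 283.4 and 267.3 CPM in control 1 and 2. scKO differed from control by 0.02 on the log2 scale (SE 0.09) over all libraries, by 0.05 (SE 0.13) within the shallow class and by -0.10 (SE 0.11) within the deep class.

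Celf2 (chromosome 2, 6539694 to 7509563, minus strand), a CELF protein of brain, heart and muscle, ranged from 682.6 to 1109 CPM (median 883.6) in shallow scKO and from 761.1 to 1344 CPM (median 958.3) in shallow control libraries. The 3 highest shallow controls were control 7, 8 and 9 with 1344, 1223 and 1282 CPM, and the highest shallow scKO library was scKO 1, so the highest values of each group were the 4 libraries that stood apart. The log2 fold change was -0.17 (SE 0.13) over all libraries and -0.02 (SE 0.09) without those 4. In deep libraries it had 400.3, 398.4 and 441.0 CPM in scKO 6, 7 and 9, against 439.3 and 380.3 CPM in control 1 and 2. Celf2 shares 1961 exonic bases with the antisense gene Gm26565, so reads of both cannot be told apart there unless strand was used, which the labels do not say. Gm26565 itself held 10 counts in all.

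Rbfox2 (chromosome 15, 77078990 to 77307004, minus strand), the RBFOX gene of proliferating and many non-neuronal cells, ranged from 358.2 to 546.4 CPM (median 535.3) in shallow scKO and from 365.9 to 587.4 CPM (median 459.2) in shallow control libraries. The groups overlapped over most of their range. In deep libraries it had 359.7, 336.9 and 346.8 CPM in scKO 6, 7 and 9, against 350.1 and 294.3 CPM in control 1 and 2. Over all libraries scKO differed from control by 0.13 on the log2 scale (SE 0.11), by 0.14 (SE 0.15) within the shallow class and by 0.10 (SE 0.11) within the deep class.

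**Figure D2:**
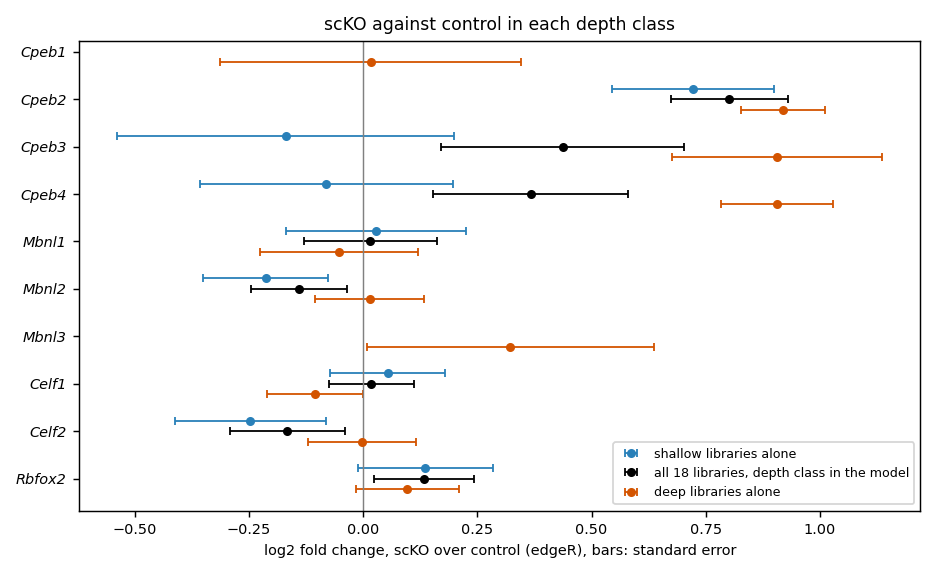
Log2 fold change of scKO over control by edgeR for each gene, in shallow libraries alone, in all 18 libraries with the depth class in the model, and in deep libraries alone. Bars are standard errors. Cpeb2 lies between 0.72 and 0.92 in all 3, Cpeb3 and Cpeb4 at 0.91 in deep libraries and below 0 in shallow ones, and Mbnl1, Mbnl2, Celf1, Celf2 and Rbfox2 between -0.25 and 0.14. Cpeb1 (0.02) and Mbnl3 (0.32) passed the filter in deep libraries alone and are shown there.

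Of the 10 genes, 8 passed the count filter over all libraries, and edgeR called 1 of them, Cpeb2, which was higher in scKO. Over all 7662 genes tested 0.679% were called, and 0.326% were called higher. Cpeb2 was called under 9 of 13 alternatives and with any 1 of the 18 libraries left out. It was not called in shallow libraries alone (0.72), there without the 4 libraries named above (0.79), without the depth class in the model (0.85) or with counts thinned to the smallest total (0.81). In deep libraries alone all 10 passed and 3 were called, Cpeb2, Cpeb3 and Cpeb4, against 14.3% of 13136 genes in either direction and 7.31% called higher. With scKO 6, 7 or 9 left out of the deep libraries, Cpeb2 and Cpeb4 were called each time. Cpeb3 was called without scKO 6 or scKO 9 and was not called without scKO 7 (0.69). Leaving out a deep control leaves 1 control, and Cpeb3 was then at 0.67 without control 1 and 1.246 without control 2. Cpeb2, Cpeb3 and Cpeb4 were also the members whose deep groups did not overlap with scKO higher, against 24.7% of genes in that class and direction. Since the members were proposed with this comparison known, these counts describe them and nothing is read from them. Whether the difference between scKO and control for Cpeb3 and Cpeb4 was itself unequal in the 2 depth classes was not tested.

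Markers of other cell types were set beside the deep difference. Neuronal markers (6 genes, with Stmn2 the most abundant) summed to 23.1 to 36.4 CPM in deep scKO and 69.8 to 83.5 CPM in deep control libraries, with Snap25 at 0 and Syt1 and Rbfox3 at 4 and 1 counts in all libraries together. In shallow libraries they summed to 11.1 to 56.3 CPM in scKO and 14.3 to 61.8 CPM in control. Schwann cell markers summed to 34.3 to 51.0 CPM in deep scKO and 19.1 to 27.6 CPM in deep control libraries, and in shallow libraries to 15.8 to 84.2 CPM in scKO and 37.1 to 150.5 CPM in control, with Sox10 the most abundant. Fibro-adipogenic markers summed to 48.7 to 56.5 CPM in deep scKO and 40.9 to 48.8 CPM in deep control libraries, and in shallow libraries to 37.5 to 90.6 CPM (median 69.8) in scKO and 61.7 to 133 CPM (median 78.7) in control. Smooth muscle and pericyte markers summed to 261.2 to 296.3 CPM in deep scKO and 213.1 to 259.5 CPM in deep control libraries, and in shallow libraries to 307.2 to 425.8 CPM in scKO and 249.4 to 349.7 CPM in control. Endothelial markers summed to 11.4 to 16.8 CPM in deep scKO and 9.17 to 31.2 CPM in deep control libraries. In shallow libraries these were at 6.36 to 45.0 CPM in scKO and 5.8 to 53.7 CPM in control. Tendon markers summed to 292.3 to 322.7 CPM in deep scKO and 249.3 to 297.7 CPM in deep control libraries. In shallow libraries these were at 181.3 to 515.3 CPM in scKO and 132 to 482.3 CPM in control. The part of these cell types in the differences was not tested.

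CPEB levels were set against those of the splicing factors within each library, as the mean log2 CPM of Cpeb2, Cpeb3 and Cpeb4 minus the mean log2 CPM of Mbnl1, Mbnl2, Celf1, Celf2 and Rbfox2. Cpeb1 and Mbnl3, which did not pass the filter over all libraries, are left out of this measure. Their log2 fold changes in deep libraries alone were 0.02 (SE 0.33) and 0.32 (SE 0.31), so the measure does not stand for all 10 members. In deep libraries the measure was -2.27, -2.20 and -2.45 in scKO 6, 7 and 9, against -3.38 and -3.03 in control 1 and 2. In shallow libraries it ranged from -3.54 to -3.11 (median -3.21) in scKO and from -4.14 to -2.85 (median -3.40) in control. CPEB levels relative to splicing factors were thus higher in every deep scKO library than in both deep controls, by 0.90 log2 units on average, while the shallow scKO libraries lay within the shallow control range, with a mean difference of 0.21. The highest shallow controls were control 8 and 9, at -2.85 and -3.04. Without control 7, 8 and 9 and scKO 1 the shallow difference was 0.45, and over both classes 0.63 against 0.40 with all libraries. The sides of this ratio do not carry equal information in deep libraries, because Mbnl2, Celf2 and Rbfox2 there filled 47.7% to 77.0% of the ceiling, Celf1 38.6% to 54.1%, and Mbnl1 11.5% to 27.0%, against 9.52% to 27.2% for Cpeb2. Correcting the counts for UMIs that mark more than 1 molecule, on the assumption of tags of 6 bases, gave a deep difference of 0.88 and a shallow one of 0.22.

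**Figure D3:**
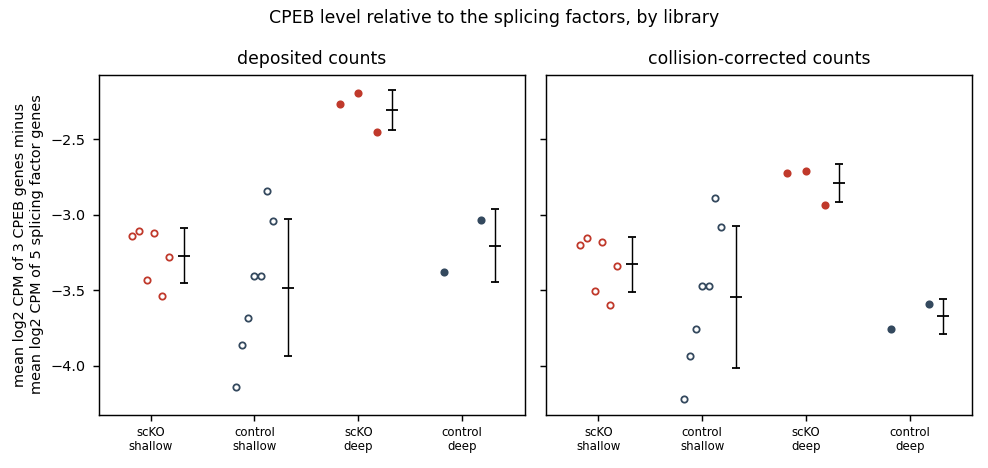
Mean log2 CPM of the 3 CPEB genes that passed the filter minus that of the 5 splicing factor genes, in each library, from the deposited counts and from counts corrected for UMI collisions. Points are libraries and bars are mean ± SD of each group. The 3 deep scKO libraries lie above both deep controls in both panels, and the shallow groups overlap.

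The depth classes were part of how the genes were to be compared, but the genes were chosen on scKO against control and not on their levels in deep against shallow libraries. That difference was tested in the same model. Of the 8 members that passed the filter, 6 differed between deep and shallow libraries, against 60.4% of all genes tested, a share close to that background. Mbnl2 had a log2 fold change of deep over shallow libraries of -0.86 (SE 0.12, edgeR adjusted p = 1.74e-06), Celf2 of -1.20 (SE 0.15; edgeR adjusted p = 2.55e-07), Celf1 of -0.50 (SE 0.10; edgeR adjusted p = 0.000215) and Rbfox2 of -0.51 (SE 0.12; edgeR adjusted p = 0.00107). Mbnl1 was higher in deep libraries by 0.84 (SE 0.15; edgeR adjusted p = 2.75e-05) and Cpeb2 by 0.38 (SE 0.13; edgeR adjusted p = 0.0142), while Cpeb3 (-0.16, SE 0.26; edgeR adjusted p = 0.621) and Cpeb4 (0.42, SE 0.21; edgeR adjusted p = 0.0885) did not pass. Cpeb4 did pass without control 1 (0.57, edgeR adjusted p = 0.0339), control 8 (0.49, edgeR adjusted p = 0.0263) or control 9 (0.48, edgeR adjusted p = 0.0341), without the 4 libraries named above (0.61, edgeR adjusted p = 0.000388), and by limma-voom (0.45, adjusted p = 0.0406). Cpeb2 did not pass without a count filter (0.38, edgeR adjusted p = 0.0706). The 4 members that were lower were the 4 with the highest counts. In deep libraries Celf2 filled 59.8% to 77.0% of the ceiling, Mbnl2 58.1% to 73.7%, Rbfox2 47.7% to 65.1% and Celf1 38.6% to 54.1%, against at most 18.4% for any member in shallow libraries. With collision-corrected counts Rbfox2 was at -0.11 (SE 0.13; edgeR adjusted p = 0.475), Celf1 at -0.25 (SE 0.11; edgeR adjusted p = 0.0503), Mbnl2 at -0.32 (SE 0.13; edgeR adjusted p = 0.0344) and Celf2 at -0.61 (SE 0.15; edgeR adjusted p = 0.00146), so 4 of 8 members passed, against 59.6% of all genes. For Mbnl1 and Cpeb2 the same correction gave 0.86 (SE 0.15; edgeR adjusted p = 3.17e-05) and 0.40 (SE 0.13; edgeR adjusted p = 0.0141).

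**Figure D4:**
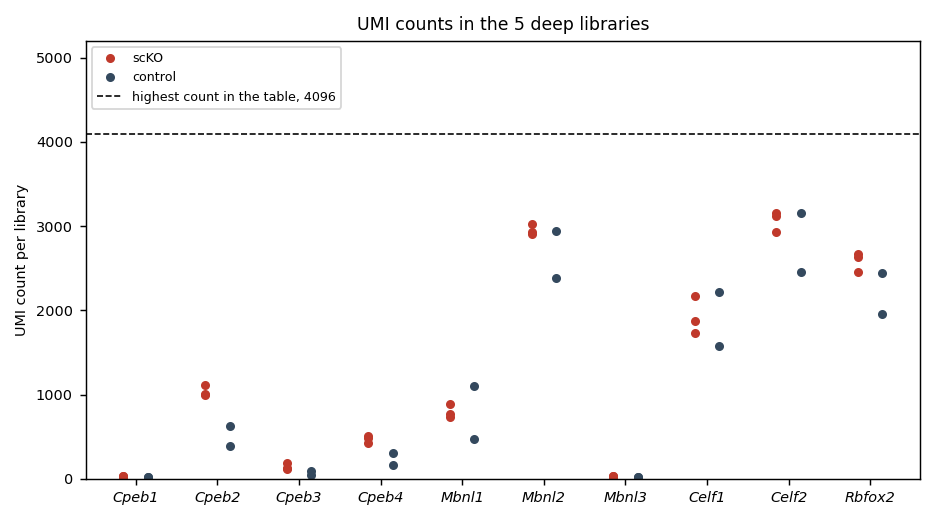
UMI counts of each gene in the 5 deep libraries, scKO left of control, with the highest count of the table as a dashed line. Celf2, Mbnl2 and Rbfox2 reach 3153, 3019 and 2666 UMIs, and the CPEB genes stay at or below 1115.

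The corrected counts also bear on the deep differences between the groups. In deep libraries alone they gave a log2 fold change of 0.23 (SE 0.09) for Rbfox2, 0.13 (SE 0.09) for Mbnl2, 0.11 (SE 0.10) for Celf2 and -0.11 (SE 0.11) for Celf1, against 0.10, 0.01, -0.00 and -0.10 from the deposited counts. For Cpeb2, Cpeb4 and Cpeb3 they gave 1.02 (SE 0.10), 0.94 (SE 0.13) and 0.92 (SE 0.23). With both, Cpeb2, Cpeb3 and Cpeb4 had larger differences than the other 7 members.

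Levels were ordered between genes after division by the length of their merged exons, and in shallow libraries, where the ceiling matters least. Mbnl2 had 63.7 CPM per kb (median of 13 libraries; range 43.1 to 74.6), Rbfox2 59.5 (44.0 to 72.2), Celf1 44.5 (37.5 to 50.4) and Celf2 34.6 (26.4 to 51.9). Cpeb2 followed at 9.01 (6.35 to 18.7), then Cpeb4 at 5.65 (2.72 to 10.6), Mbnl1 at 3.29 (2.06 to 4.03) and Cpeb3 at 2.14 (0.935 to 4.37). Cpeb1 and Mbnl3 came last at 0.798 and 0.403 CPM per kb, with libraries at 0. The only neighbours in this order whose ranges did not overlap were Celf2 and Cpeb2, so the abundant splicing factors stood apart from the CPEB genes, Mbnl1 and Mbnl3. If reads came only from one end of the messages, division by length does not apply, and the labels do not say which part was read.

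The members did not vary as 1 group across libraries. After removal of the group and depth class means, log2 CPM of Cpeb3 and Cpeb4 went together over the 18 libraries (Pearson r = 0.81), and both went with Celf2 (r = 0.70 and 0.72). Cpeb2 was close to neither (r = -0.05 with Cpeb3 and 0.18 with Cpeb4). Cpeb3, Cpeb4 and Celf2 share high values in control 8 and 9. These correlations are a description of libraries that also share their depth and composition. Of 6498 other genes with a mean of at least 20 CPM, those with the residual pattern most like Cpeb2 were Tmem30a (r = 0.86), Gtf2i (r = 0.85) and Dld (r = 0.84). Those most like Celf2, the tested member with the highest mean CPM before division by length, were Ripor1 (r = 0.93), Cbx5 (r = 0.93) and Map4 (r = 0.92), over the same 18 libraries.

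Genes related to the members were taken from 6 lists, of which 140 genes passed the filter. With the depth class in the model, edgeR called 0 of them, against 0.679% of all genes. At an unadjusted p under 0.05 there were 20 (14.3%), against 911 of all 7662 genes (11.9%), and DESeq2 called 9 (6.43%, against 5.09% of all genes) and limma-voom 3 (2.14%, against 1.32%). Of the enzymes and partners of cytoplasmic polyadenylation and deadenylation, 9 of 29 had positive log2 fold changes (median -0.05), beside a median of -0.01 over all genes. Cstf2, a subunit of the cleavage stimulation factor, was at -0.36 (SE 0.12; edgeR adjusted p = 0.183) and Pabpc1, the main cytoplasmic poly(A)-binding protein, at -0.45 (SE 0.18; edgeR adjusted p = 0.298). In deep libraries alone 4 of 34 (11.8%) were called, a share below the 14.3% of genes called in either direction. All 4 were lower, against 7.03% of genes called lower. Among them were Cnot3 at -0.51 (SE 0.12; edgeR adjusted p = 0.0109) and Cnot9 at -0.42 (SE 0.09; edgeR adjusted p = 0.0089), subunits of the CCR4-NOT deadenylase. These and the other genes named for deep libraries alone were chosen after their values were seen.

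Messages known as targets of CPEB proteins in other systems had 3 of 10 positive values (median -0.21). Aurka, the kinase that phosphorylates CPEB1 in frog oocytes, had 33.4 to 52.4 CPM (median 45.2) in shallow scKO and 35.6 to 85.7 CPM (median 57.6) in shallow control libraries, and 45.6, 52.4 and 55.3 CPM in deep scKO against 97.3 and 97.7 CPM in deep control libraries. The deep groups did not overlap. It differed by -0.61 on the log2 scale over all libraries (SE 0.15; edgeR adjusted p = 0.0603), and Tpx2, a spindle assembly factor, by -0.47 (SE 0.14; edgeR adjusted p = 0.122). In deep libraries alone 7 of 13 were called, against 14.3% of genes. Aurka, Tpx2, Ccnb1, Ccnb2, Cdk1 and Trp53 were lower, with log2 fold changes from -0.95 to -0.50. All but Trp53 also act in cell division. In shallow libraries Aurka was at -0.41 (SE 0.21), Tpx2 at -0.39 (SE 0.19), Ccnb1 at -0.36 (SE 0.21) and Ccnb2 at -0.30 (SE 0.23). Trp53 was at -0.11 (SE 0.36) and Cdk1 at -0.01 (SE 0.23) there. Cdk1 and Trp53 had up to 2832 and 2263 UMIs in a deep library, so the ceiling touches their deep values. Camk2a, a synaptic kinase and the classic neuronal CPEB target, was higher in deep libraries at 1.03 (SE 0.14; edgeR adjusted p = 0.000799) and at -0.28 (SE 0.21) in shallow ones.

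Other RNA-binding regulators of translation had 11 of 26 positive values (median -0.06), with G3bp2, a stress granule protein, at -0.28 (SE 0.12; edgeR adjusted p = 0.324) and Stau2, which carries and stabilises messages, at 0.40 (SE 0.20; edgeR adjusted p = 0.439). Of these, 2 of 32 (6.25%) were called in deep libraries alone, against 14.3% of genes. Of the other tissue-restricted splicing regulators, 4 of 13 were positive (median -0.10), with Khdrbs3 at -0.36 (SE 0.14; edgeR adjusted p = 0.28) and Ptbp3 at -0.30 (SE 0.12; edgeR adjusted p = 0.296). Of these, 3 of 16 (18.8%) were called in deep libraries alone. General SR and hnRNP splicing factors had 5 of 33 positive values (median -0.15), with Hnrnpl at -0.34 (SE 0.12; edgeR adjusted p = 0.206) and Hnrnpr at -0.36 (SE 0.16; edgeR adjusted p = 0.366). In deep libraries alone 7 of 38 of these were called, against 14.3% of genes, with Rbm4 higher and Srsf3, Srsf7, Srsf9, Tra2a, Ptbp1 and Hnrnpa3 lower. Ptbp1, a repressor of muscle and neuronal exons, was at -0.77 (SE 0.11; edgeR adjusted p = 0.000931) there and at -0.12 (SE 0.29) in shallow libraries.

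Messages known as splicing targets of MBNL, CELF or RBFOX proteins in muscle had 22 of 29 positive values (median 0.10). Dmd, which encodes dystrophin, had 34.5 to 41.0 CPM in deep scKO and 13.3 and 18.1 CPM in deep control libraries, and 28.6 to 35.2 CPM (median 30.9) in shallow scKO and 14.1 to 51.0 CPM (median 20.1) in shallow control libraries. It differed by 0.72 on the log2 scale (SE 0.23; edgeR adjusted p = 0.145), and Camk2b, a calcium-dependent kinase, by 0.56 (SE 0.18; edgeR adjusted p = 0.149). In deep libraries alone 11 of 35 were called higher, against 7.31% of genes, and 1 lower. Among the higher ones were Dmd, Camk2b, Cacna1s, Nrap, Trim55, Mef2a, Ldb3, Pdlim3, Mef2c and Ryr1, most of them parts of the sarcomere, the triad or the membrane of muscle fibres or factors that activate their genes, and the lower one was Fn1, fibronectin. Fn1 was at -0.63 (SE 0.13) in deep libraries, at 0.58 (SE 0.20) in shallow ones and at 0.22 (SE 0.19) over all, so its direction turned between the classes. Of the higher genes named, Cacna1s (-0.33), Trim55 (-0.13), Pdlim3 (-0.09), Nrap (-0.05), Mef2a (-0.03) and Ldb3 (-0.00) were below 0 in shallow libraries. Dmd (0.24), Mef2c (0.23) and Ryr1 (0.22) were above 0 there, and Camk2b did not pass the filter. Of other sarcomere genes of the list, Tnnt2, Tnnt3 and Tpm1 had deep values of -0.17, -0.13 and -0.15. Tpm2, Ttn and Neb were at 0.05, 0.26 and 0.35. In shallow libraries the median of this list was -0.00, against 0.19 in deep ones, and that difference was not tested. Mef2c, Ldb3, Pdlim3 and Mef2a had up to 3359, 2858, 2713 and 2275 UMIs in a deep library, so the ceiling touches their values.

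**Figure D5:**
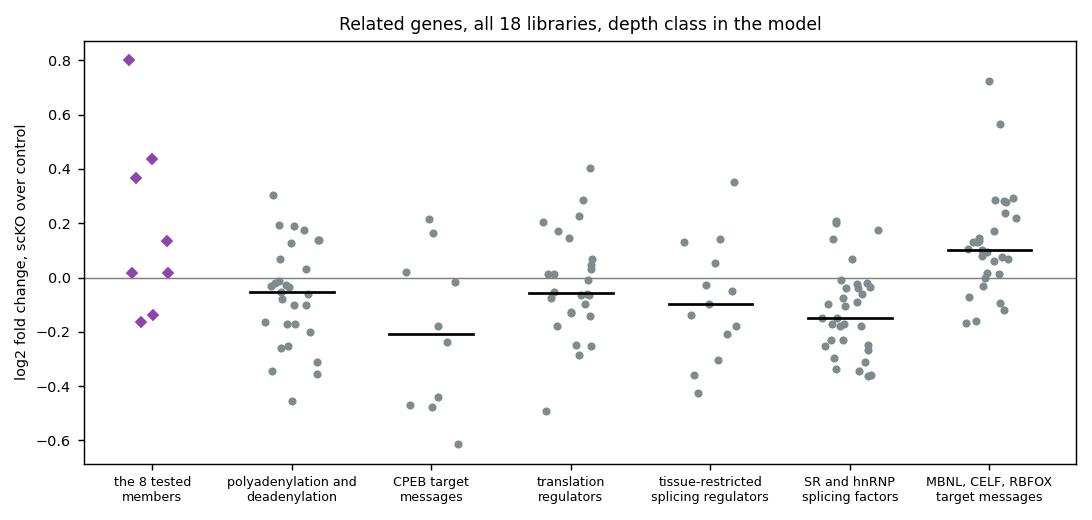
Log2 fold change of scKO over control for each tested gene of the 6 lists, over all 18 libraries with the depth class in the model, and for the 8 tested members (diamonds). Black lines are list medians, from -0.21 for messages known as CPEB targets to 0.10 for the splicing targets. Cpeb2, at 0.80, lies above all 140 list genes, but it was chosen with this comparison known, so nothing is read from its place.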

How the data were processed

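The deposited table holds raw counts of UMIs per gene in 18 libraries, per the name of the table; the submitters' processing notes list HISAT2, HTSeq and the rat build Rnor 6.0, with no tool version, while the identifiers are mouse Ensembl genes. The kit, strand, annotation and UMI length are not given in the sources used here. Symbols were paired with 50376 of 50689 identifiers, and the 313 others held 0.041% of counts. Positions, exons and 3′ UTRs came from GENCODE M21 (GRCm38).

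Genes were filtered with filterByExpr (7662 kept), scaled by TMM and tested with edgeR 4.0.16 (quasi-likelihood, robust; R 4.3.3) with the depth class and group, Benjamini-Hochberg adjustment over all genes and a threshold of 0.05. DESeq2 1.42.0 and limma 3.58.1 (voom) were alternatives. Log2 CPM had a prior count of 2. A count of 3 in a library was worth 0.362 to 8.65 CPM. Members, lists and the depth class were chosen with earlier results of these data known. Named list genes were those called or, failing that, the 2 with the smallest p per list. Methods were tested on simulated data. Replicate numbers did not pair the libraries. Promoter sequences were not used here.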

Additional observations from a re-analysis of the deposited data

Results flagged for a closer look

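Each member's log2 CPM was checked in scKO and control, over all libraries and in shallow ones, 40 groups in all, for a highest or lowest library far from the rest by Dixon's criterion. Chance marks about 1 in 20 such groups, and 2 were marked, both for scKO 1. Rbfox2 was at 358.2 CPM in scKO 1, with the nearest shallow scKO library at 487.7 CPM, a gap of 0.731 of the range over 6 libraries. Mbnl3 had 0 UMIs in scKO 1, with the nearest scKO library at 2.87 CPM, a gap of 0.561 of the range over 9 libraries; a few UMIs decide that value. scKO 1 is among the 4 libraries that stood apart in the earlier analysis.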

How the results depend on the processing

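The 8 tested members' log2 fold changes were recomputed under 13 alternatives, and 100 of 102 values lay within 1 SD (between libraries of 1 group and depth class) of the value reported. Cpeb4 (0.91) and Celf1 (-0.10) in deep libraries alone did not. That SD is wide for low genes, and in shallow libraries alone Cpeb3 (-0.17) and Cpeb4 (-0.08) were below 0, against 0.44 and 0.37. Cpeb2 ranged from 0.72 to 0.92 under them. The number of genes called over the whole table was 52, and it was 1 with the group alone, 3 in shallow and 1884 in deep libraries alone, 359 without a count filter, 22 with at least 10 counts in 9 libraries, 390 by DESeq2, 101 by limma-voom, 3 with thinned counts and 619 without control 7, 8, 9 and scKO 1. In shallow libraries without those 4, an alternative added after seeing the data, it was 0 (edgeR). Leaving out 1 library gave 11 to 215, and in deep libraries alone it gave 1306 (control 1), 1813 (control 2), 1601 (scKO 6), 996 (scKO 7) and 1437 (scKO 9). Of the list genes, 0 were called in the reported model, 35 in deep libraries alone (43, 54, 32, 19 and 29 with the same libraries left out), 3 without a filter, 9 by DESeq2, 3 by limma-voom and 17 without the 4 libraries, and 0 to 4 with 1 of all libraries left out. The difference in the level of the 3 CPEB genes relative to the 5 splicing factors was 0.40, and 0.92 in deep libraries alone. The deep value was 0.74 without control 1, 1.09 without control 2, and 0.90, 0.86 and 0.99 without scKO 6, 7 and 9. Of the members, 6 differed between depth classes, and 4 to 7 under the alternatives. The difference for Cpeb3 between classes changed sign to 0.15 without the 4 libraries and to 0.015 without control 1, and leaving out 1 library gave -0.33 to 0.015. The causes were not tested. With the replicate number as a block, 14 genes were called; same-numbered libraries correlated at -0.066 to 0.25, with 5 of 9 pairs over 0.1 and 2 of 9 controls closest to their own number, so the numbers were not taken as pairs. DESeq2 and limma-voom give no CPEB ratio of their own.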
